A study of Drosophila melanogaster with 2 samples.

Results

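The regions described here were the 300 strongest summits of Capicua-GFP binding in whole adult Drosophila melanogaster, taken from the reproducible dm6 peak list that the authors made from both replicates together, which holds 6852 other entries. They were selected on the peak strength that the authors' peak caller gave each entry, with ties broken by chromosome arm and start, so the strengths themselves are a description and were not tested. A summit is the base where an entry's signal peaked, and each summit had its own entry. The 25 strongest form the head of the set, and most of what follows is about the 275 summits of ranks 26 to 300, set against the other 6852, called the rest of the list.

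The flies were adults of unknown age, males and females pooled, from 1 transgenic line of the strain cic-GFP, in which GFP was fused to the C-terminal end of the protein made by cic. Sonicated chromatin, in pieces of 200 to 800 bp, was precipitated with an antibody against GFP, so the assay read the tagged protein. The single group held 2 biological replicates, numbered 1 and 3 in the labels, and no other genotype, treatment, age or control library was analysed here. Signal from a whole animal cannot be split into cell types, and many cells weakly bound and few cells strongly bound cannot be told apart.

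Capicua is an HMG-box repressor of transcription. It holds target genes off where receptor tyrosine kinase signalling is low, and phosphorylation downstream of Ras and ERK relieves that repression by inactivating it or moving it out of the nucleus. It recognises the octamers TGAATGAA and TGAATGGA, and its known targets in fly tissues include feedback inhibitors of the same pathway and ETS factors.

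The octamers set these summits, taken as a whole, apart from the rest of the list most clearly among the sequence and position features compared. The last 100 members alone held one at 9%, close to the 7.33% of the 300 entries that follow. The windows below show the closest cases. They are among the summits of ranks 26 to 300 whose octamer lay nearest to the summit, followed by 4 others shown for a second copy or for a gene that recurs below. Each is read from the RefSeq Release 6 genome 5′ to 3′ on the strand that carries the octamer nearest to the summit, with every copy of either octamer, or of its reverse complement, in capitals.
InR, rank 30, chr3R:21590095-21590124, plus strand: cttgaatcaagTGAATGAAgtatttagcgc
klu, rank 112, chr3L:11010651-11010710, plus strand: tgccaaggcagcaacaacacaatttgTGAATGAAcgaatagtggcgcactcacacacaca
pnt promoter, rank 86, chr3R:23314427-23314486, minus strand: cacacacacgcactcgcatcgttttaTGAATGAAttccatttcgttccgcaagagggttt
CG7149, rank 59, chr2L:7791002-7791061, plus strand: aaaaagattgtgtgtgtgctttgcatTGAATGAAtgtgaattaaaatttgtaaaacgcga
CG5644, rank 124, chr3L:8978849-8978908, plus strand: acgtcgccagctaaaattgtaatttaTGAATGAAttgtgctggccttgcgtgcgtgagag
Argk1, rank 89, chr3L:9066664-9066723, minus strand: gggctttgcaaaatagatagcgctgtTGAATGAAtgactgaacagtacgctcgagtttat
REPTOR, rank 28, chr3R:24582010-24582069, plus strand: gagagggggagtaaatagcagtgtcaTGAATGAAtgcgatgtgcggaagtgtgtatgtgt
kay first intron, rank 47, chr3R:29778920-29778979, minus strand: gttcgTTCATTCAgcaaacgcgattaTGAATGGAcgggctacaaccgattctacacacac
pnt intron, rank 74, chr3R:23334589-23334648, plus strand: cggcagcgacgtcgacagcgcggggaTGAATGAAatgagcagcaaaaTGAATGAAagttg
fok, rank 135, chr2L:20085205-20085264, plus strand: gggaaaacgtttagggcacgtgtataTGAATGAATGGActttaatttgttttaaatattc

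The octamer centre lay 0.5 bp from the summit at InR, the insulin receptor gene, and equally close at klu, which encodes a zinc-finger factor. At the promoter of pnt, the ETS factor gene that acts downstream of Ras, it lay 2.5 bp away, and at CG7149 it lay 9.5 bp away. The distance was 12.5 bp at CG5644 and 15.5 bp at Argk1, the arginine kinase gene. Another 3 of the 10 nearest lay on arm 2R, at EcR (rank 37, 1.5 bp), cv-2 (rank 287, 5.5 bp) and Zasp52 (rank 262, 16.5 bp). EcR encodes the ecdysone receptor, cv-2 a secreted BMP-binding protein and Zasp52 a Z-disc protein. The window at fok, named after its sequence was seen, holds both octamers run together over 12 bases that share a TGAA.

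Either octamer lay within 100 bp of 48 of the 300 summits, which is 16% (exact 95% interval 12.0 to 20.6%), against 4.76% of the rest (two-sided Fisher's exact test, p = 8.62e-12 adjusted over 12 motif tests). In ranks 26 to 300 it was 39 of 275, or 14.2% (exact test, adjusted p = 2.57e-08). Windows of the same length centred 1000 bp to either side held an octamer in 3.33% of cases for the 300 and in 2.77% for the rest. The neighbouring windows of the 300 thus held an octamer less often than their summits did, and 252 of the 300 summits held none within 100 bp. The test treats summits as independent, which neighbours are not; with 1 summit per merged region the shares were 15.7% and 4.74%. Earlier results of these data already showed octamers at the stronger peaks, so this is no independent support.

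TGAATGAA supplied most of the matches, at 42 summits of the 300 (14%, against 3.43%, exact test, adjusted p = 1.80e-12). TGAATGGA lay at 10 (3.33%, against 1.37%, exact test, adjusted p = 0.0278), and in ranks 26 to 300 alone this call was lost (2.91%, adjusted p = 0.121). It was also lost when entries were ranked by replicate 3 alone (3% against 1.34%, exact test, adjusted p = 0.115). Several copies were found at 8 of the 300 summits. Counted by distance, the 300 held 60 octamer copies per 1000 summits per 50 bp of sequence within 25 bp of the summit and 66.7 between 25 and 50 bp, against 14.7 and 13.1 for the rest. Between 200 and 400 bp the densities were 12.1 and 8.23. Widening the window to 400 bp brought an octamer to 85 of the 300 (28.3%), against 13.4% of the rest.

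**Figure D1:**
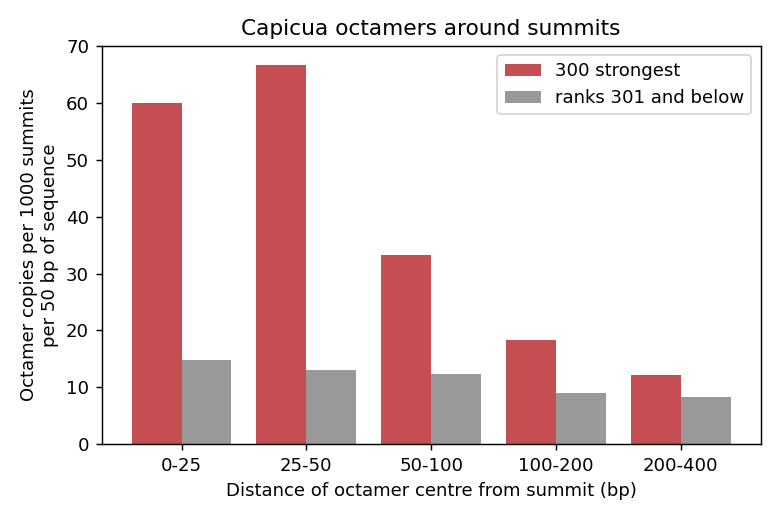
Octamer copies per 1000 summits per 50 bp of sequence (vertical axis) by distance of the octamer's centre from the summit in bp (horizontal axis), for the 300 strongest summits (red) and for the rest of the list (grey); bars are densities without error bars. The red bars stand at 60 and 66.7 within 50 bp and fall to 12.1 beyond 200 bp, while the grey bars go from 14.7 to 8.23.

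Promoter and intron summits both took part. Within promoter summits 32 of the 168 members held an octamer (19.0%), against 4.24% of the other promoter summits (two-sided Fisher's exact test, p = 5.52e-12). Within intron summits it was 13 of 101 (12.9%), against 5.76% (exact test, p = 0.00861). These comparisons within a location were chosen after seeing the data. Of the 24 intergenic members 3 held an octamer, and klu was one of them.

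Of the other motifs searched on both strands, a CA repeat (CACACACA) lay within 100 bp of 20.7% of the 300, against 10.2% of the rest (exact test, adjusted p = 5.72e-07). Its flanking windows held it in 7.17% and 4.66% of cases. By rank, the CA repeat share was 26.7% over ranks 26 to 100, 17% over the next 100 and 18% over the last 100 members. A raised share was not particular to the 300, since it was 15.7% over the 300 entries that follow. Over the last 2352 entries of the list it was 8.72%. The GAGA element (GAGAGAG), the site of the GAGA factor, lay at 13.7% against 9.08% (exact test, adjusted p = 0.0278). Ranked by replicate 3 alone, the GAGA shares were 11.7% and 9.35% and the call was lost (exact test, adjusted p = 0.378). The remaining sequences did not pass the exact test: DRE (TATCGATA, 1% against 2.79%, adjusted p = 0.134), a GATA site (TGATAAG), the E-boxes CACGTG and AACAGCTG, an AP-1 site (TGANTCA), an ETS site (ACCGGAAG) and a Zelda site (CAGGTAG). The ETS site was found at 0 of the 300 and at 0.204% of the rest, so its share could not be compared at this number of summits. No other motif contains an octamer or lies within one.

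The 300 summits lay less often at promoters and more often in introns than the rest of the list. A promoter here is the 1000 bp on either side of an annotated start of a protein-coding gene, and a summit counted as promoter before any other class. It held 168 of the 300 summits, which is 56% (50.2 to 61.7%), against 65.1% of the rest (two-sided Fisher's exact test, p = 0.00968 adjusted over 6 location classes). Introns held 101, or 33.7% (28.3 to 39.3%), against 26.4% (exact test, adjusted p = 0.0185). Another 24 were intergenic (8% against 6.09%, exact test, adjusted p = 0.354). The last 7 lay in a 3′ UTR (4), a 5′ UTR (2) or a coding exon (1).

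In ranks 26 to 300 the promoter share was 56.4% (exact test, adjusted p = 0.0223), and the intron share of 32.7% was no longer past the threshold (adjusted p = 0.0646). The difference was not even along the ranks. The promoter share was 48% over ranks 26 to 100, 66% over the next 100 ranks and 53% over the last 100, each over at most 100 summits. Intron shares over the same ranks were 41.3%, 23% and 36%. Ranked by replicate 3 alone, the 300 strongest entries showed promoter and intron shares of 59.3% and 31.3%, which did not differ from the rest past the threshold (exact test, both adjusted p = 0.441). The octamer share had no such dip: 36% in ranks 1 to 25, 21.3% in ranks 26 to 100, 14% over the next 100 ranks, 9% over the last 100 and 7.33% over the 300 entries that follow the members.

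**Figure D2:**
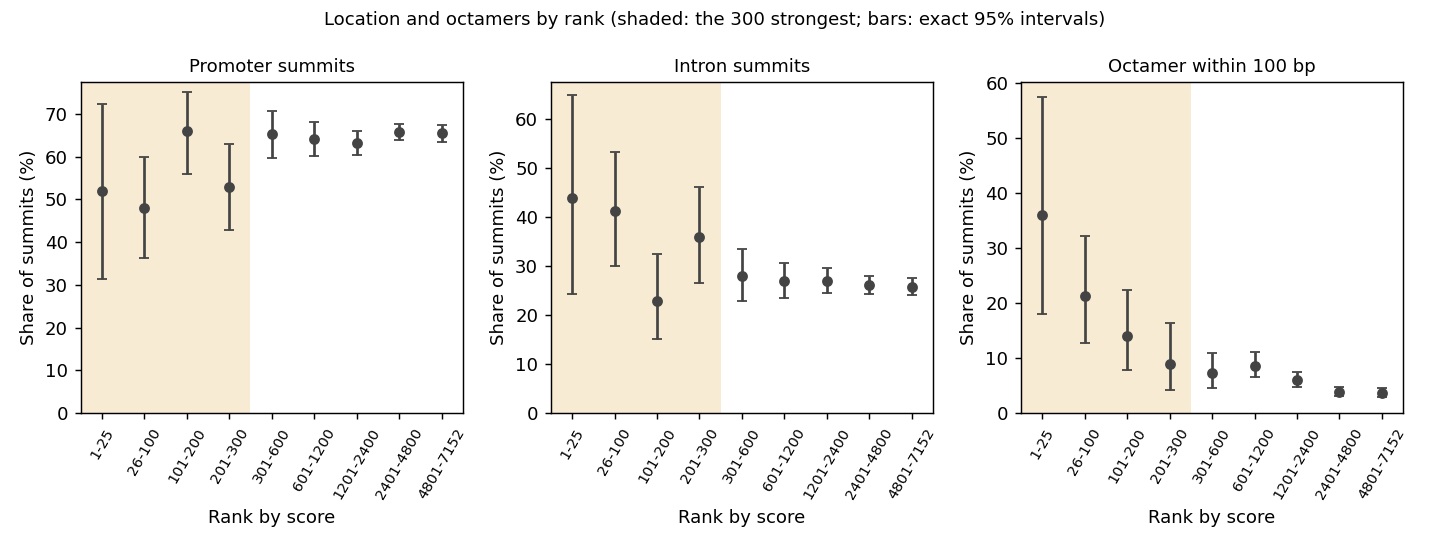
Share of summits in percent (vertical axes) at promoters, in introns and with an octamer within 100 bp, for successive ranges of rank (horizontal axes); points are shares, bars exact 95% binomial intervals, and the shaded area holds the 300 strongest. The octamer share falls from 36% in ranks 1 to 25 to 9% in the last 100 of the members, while the promoter share of the members moves between 48% and 66% without a steady order.

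Among the 168 promoter summits, 98 lay upstream of the nearest start and 70 downstream. The upstream share of 58.3% was near that of promoter summits in the rest, 56.2%. The promoter members stood farther from the nearest start than other promoter summits did. Of them 99 (58.9%) lay within 250 bp, against 69.4% of promoter summits in the rest, with medians of 201 and 120.5 bp, given without a test. Over all locations the median distance was 747 bp for the 300 and 342.5 bp for the rest, and 39 members (13%) lay beyond 5000 bp, against 10.4%. Of the intron summits 65 of 101 (64.4%) were in a first intron, meaning that of any annotated transcript of a host gene, against 67.7% in the rest. Starts of a second gene on the other strand were less frequent: 31 of 168 promoter members (18.5%) stood at such a divergent pair, against 28.8% (two-sided Fisher's exact test, p = 0.00297; ranks 26 to 300, 20%, p = 0.0183).

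**Figure D3:**
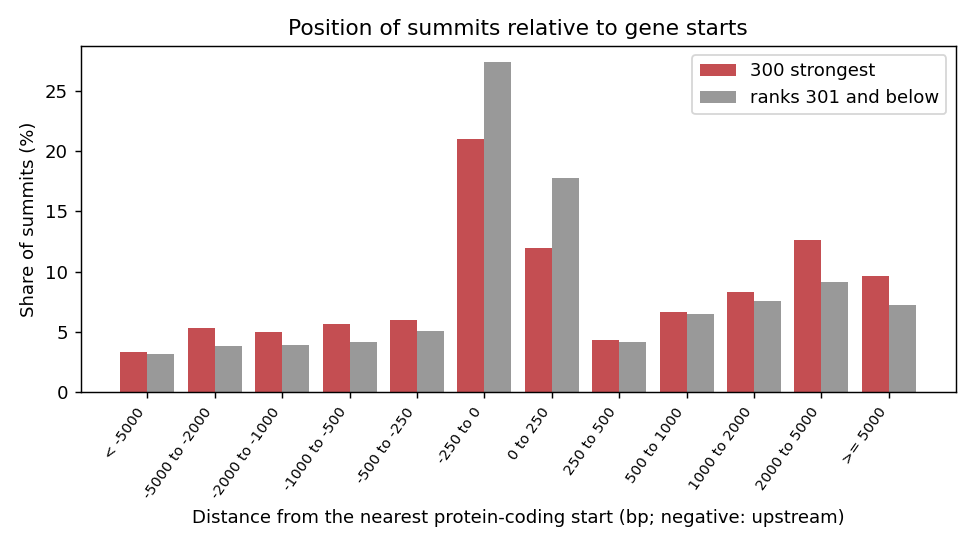
Share of summits in percent (vertical axis) by distance from the nearest protein-coding start in bp (horizontal axis, negative values upstream; the bins widen outward), for the 300 strongest (red) and the rest of the list (grey). The 2 bins within 250 bp of the start hold 21% and 12% of the 300 and 27.3% and 17.8% of the rest.

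By chromosome arm the X held 18 of the 300 (6%), against 12.8% of the rest (two-sided Fisher's exact test, p = 0.00139 adjusted over 6 arms; ranks 26 to 300, 6.55%, adjusted p = 0.00891). This call was lost against only the strongest 3276 entries of the rest (10.6%, exact test, adjusted p = 0.0570) and with the 100 strongest summits as members (5% against 12.6%, exact test, adjusted p = 0.0632). With the 600 strongest summits as members the call was kept (5.67% against 13.1%, exact test, adjusted p = 6.32e-08). A low X share was not particular to the 300. It was 5.33% over the 300 entries that follow the members, 8.83% over the next 600 and 15.3% over the last 2352 of the list. None of the 25 strongest was on the X. The flies were pooled males and females, and the part of X dosage in this share was not tested. Arm 2L held 73 (24.3% against 17.9%, exact test, adjusted p = 0.0175), a call that was lost in ranks 26 to 300 (22.9%, adjusted p = 0.113). Arms 2R, 3L and 3R held 59, 72 and 78 members and chromosome 4 held 0, and none of these shares passed the test.

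The authors' pooled strength ran from 580 to 3067 over the 300, with a median of 740, and from 580 to 1314 in ranks 26 to 300. In the rest it ran from 116 to 580. The threshold fell in a smooth stretch: the summits at tara, Pdrg1 and Thor (the last 3 members) had strengths of 581.2, 580.8 and 580.4, and those at CG10543, Kdm2 and CG31145 (the next 3 entries) had 579.7, 579.4 and 578.4. The member intervals had a median width of 733 bp, against 480 bp in the rest.

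Every one of the 300 summits overlapped an entry in the separate list of each replicate, as did 99.6% of the rest. By their labels those lists hold peaks and background together, 30000 entries each, so such overlaps say little about the members. Replicate scores come from the same reads as the pooled strength, so they describe the members and test nothing. The median score was 379 in replicate 1 and 401 in replicate 3, and the pooled strength had a median of 0.995 times the sum of both. Replicate 1 had the higher score at 137 summits and replicate 3 at 163, and in ranks 26 to 300 these counts were 120 and 155. Replicate 1 was thus the higher at 43.6% of ranks 26 to 300, against 42.4% of the rest. The difference was within 20% of the mean at 170 of the 300 (56.7%) and above 50% at 24 (8%), with a median of 16.9%, against 22.5% in the rest. By its own ranking, replicate 1 placed 265 members among its 300 strongest entries and replicate 3 placed 259. Both did so for 224, and no member was outside both. In the rest of the list the same counts were 208 for replicate 1, 215 for replicate 3 and 125 for both. Each summit took the rank of the strongest entry overlapping it, so a replicate entry could count for several summits. Because 2 summits could match the same replicate entry, 32 members shared a match.

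The closest agreement in ranks 26 to 300 was at rdx (rank 26), which encodes the Cul3 adaptor that limits Hedgehog signalling: 661 in replicate 1 and 660 in replicate 3. The next were the second summit of Pdk1 (rank 143, 387 and 388), Tet (rank 138, 393 and 395), Oscillin (rank 253, 319 and 321) and 2 summits in an intron of crp (ranks 49 and 83, 554.5 and 551 for both, which share a match). By the replicate entries with the nearest summit, rank 83 scored 512 and 445. Pdk1 encodes the kinase that activates Akt. The widest gaps went in both directions. Replicate 1 was far higher at the intergenic summit 4519 bp upstream of CG1888 (rank 93, 636 against 242) and at a second in its 3′ UTR (rank 111, 569 against 258). Replicate 3 was far higher in introns of Tlk, a chromatin-linked kinase gene (rank 200, 192 against 477), and of Tab2, an adaptor of immune and JNK signalling (rank 91, 282 against 620), and at the promoter of the casein kinase gene gish (rank 272, 194 against 412). Tlk, at rank 772 in replicate 1, was the lowest placing of any member there. Near CG1888 the direction was not uniform, since the summit at its promoter (rank 72) scored 400 in replicate 1 and 587 in replicate 3.

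**Figure D4:**
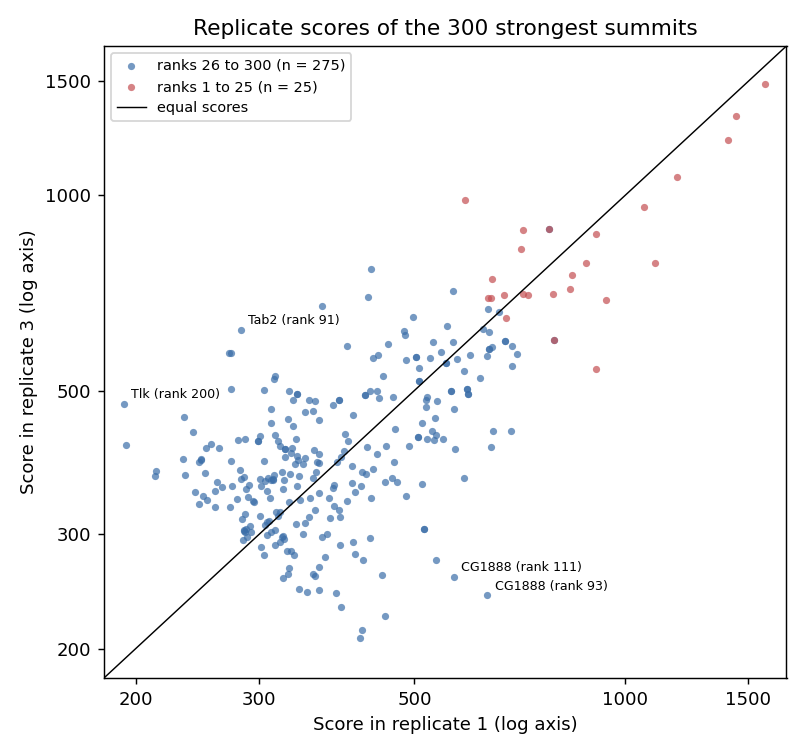
Score of each of the 300 summits in replicate 1 (horizontal log axis) and replicate 3 (vertical log axis), each point 1 summit, blue for ranks 26 to 300 and red for ranks 1 to 25, with the line of equal scores. The points lie on both sides of the line (137 below it and 163 above), and 4 of the 5 summits with the widest gaps are named.

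A protein-coding gene was linked to a summit that lay within 1000 bp of one of its starts or inside its body. By this rule 275 genes were linked to a member, which is 1.97% of the 13945 protein-coding genes, and 193 of all genes (1.38%) had a start within 1000 bp of one. Any summit of the list reached 4570 genes, or 32.8%. Most linked genes, 231 of 275, had 1 member, 34 had 2 and 10 had 3 or more. Linked genes were long, with a median length of 8210 bp against 3436.5 bp for genes with any summit and 2166 bp for all, and longer genes have more room for a summit under this rule. No gene was linked to 24 members, and 53 members were linked to several genes. The starts nearest to the 300 summits belonged to 247 different genes, and 59 of these genes are known only by a CG number. No share over all genes is given beside that count, so it describes the members only.

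The genes with the most members were cic itself, InR and ush, with 4 each. The InR summits at ranks 30, 71, 212 and 254 lay within 9261 bp of one another. In replicate 1 they scored 674, 520, 674 and 393, and in replicate 3 they scored 597, 472, 597 and 232, with ranks 30 and 212 in the same interval (chr3R:21589670-21591401) and so sharing a match. By the replicate entries with the nearest summit, rank 212 scored 273 in replicate 1 and 396 in replicate 3, so replicate 1 was the higher at ranks 30, 71 and 254 and replicate 3 at rank 212. In ush, which encodes a cofactor of GATA factors, the members of ranks 62, 94, 198 and 223 scored 369, 390, 390 and 247 in replicate 1 and 676, 484, 484 and 392 in replicate 3, so there replicate 3 was the higher throughout. All 4 were intronic, and ranks 94 and 198 shared an interval.

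The other genes with at least 3 members were spen, shn, crp, rdx, REPTOR, Kr-h1 and tara, with 3 each. REPTOR encodes the bZIP factor that TORC1 keeps inactive, and its members spanned 16078 bp: a promoter summit with an octamer (rank 28, 688 in replicate 1 and 585 in replicate 3), another promoter summit (rank 166, 327 and 407) and one in its first intron (rank 46, 532 and 593). Kr-h1, the zinc-finger gene induced by juvenile hormone, stood in the longest run of neighbouring members, 5 summits over 10698 bp of which 3 were linked to it (ranks 66, 82 and 277) and 2 lay upstream (ranks 23 and 176). In all, 90 members stood in 38 runs in which neighbouring summits were at most 10 kb apart, and 210 stood alone. No such count for the rest is given beside these, so they describe the members only. The 300 fell into 284 merged regions, 16 of which held 2 members.

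Ranks 26 to 60 included summits at InR, Akt and Pi3K68D and 1 upstream of foxo, genes of insulin and phosphoinositide signalling. Akt, the central kinase of the pathway, had a promoter summit 756 bp downstream of a start (rank 33, chr3R:16099503-16100445), which scored 626 in replicate 1 and 622 in replicate 3 (mean 624 ± 3.49, SD, n = 2). InR at rank 30 scored 636 ± 54.2 (SD, n = 2). Pi3K68D, a phosphoinositide 3-kinase gene, stood at rank 40 with 600 and 566 and an octamer 73.5 bp from its summit. An intergenic summit 5242 bp upstream of foxo, which encodes the transcription factor that Akt restrains, stood at rank 54 with 526 and 562. It was linked to no gene by the rule above, so foxo is not among the linked genes of its list.

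In the fixed list of insulin and FOXO genes 6 of 20 were linked to a member (30%), which were Pdk1, REPTOR, InR, Akt, SNF4Agamma and Thor. Of the same 20 genes 13 were linked to any summit. Over all protein-coding genes, the background for this and every other list, these shares were 1.97% and 32.8%. SNF4Agamma encodes a subunit of AMPK and Thor the translation inhibitor 4E-BP. TOR and AMPK genes gave 4 of 19, with S6k, the ribosomal protein S6 kinase gene (rank 117), and sima, the HIF factor gene (rank 167), beside REPTOR and SNF4Agamma, which both lists hold. Any summit of the list reached 13 of those 19. The gene lists were written with earlier results of these data known, so their counts are descriptions without a test.

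The circadian clock list had 5 of 13 genes linked to a member (38.5%), and 11 to any summit. They were vri (rank 38, 557 in replicate 1 and 628 in replicate 3), which encodes a repressor of Clk, Clk itself (rank 95, 425 and 491), cwo (rank 160), Pdp1 (rank 213) and the photoreceptor gene cry (rank 274). By the strongest overlapping entries replicate 3 was the higher at each summit linked to these 5 genes. By the nearest summits, the second Clk summit (rank 127) instead scored 425 in replicate 1 and 380.4 in replicate 3. Among ecdysone genes it was 4 of 16 (25%): EcR at rank 37 with 636 and 566, the coactivator gene tai (rank 203), the ETS gene Eip74EF (rank 240) and crol (rank 296). Juvenile hormone genes gave 3 of 9, with Kr-h1, tai and ETHR, the receptor gene of ecdysis-triggering hormone. Any summit of the list reached 15 of the 16 ecdysone genes and 7 of the 9 juvenile hormone genes. Eip75B, another ecdysone-induced gene, was the nearest to an intergenic summit 14351 bp away (rank 88), which is not counted.

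Genes of the Ras and ERK pathway, with which Capicua is classically tied, were counted in several lists. Each count of genes linked to a member stands beside 1.97% over all protein-coding genes and 9.79% over all genes on the lists. Feedback inhibitors gave 3 of 9 (sty, Mkp3 and Socs36E), each with a member within the 25 strongest, and ligands and receptors 3 of 26 (spi, Krn and Pvr). Any summit of the list reached 8 of those 9 feedback inhibitors and 11 of those 26 ligands and receptors. Of the 18 core cascade genes 10 were linked to some summit of the list, and only RasGAP1, a negative regulator of Ras, to a member (ranks 34 and 76). At rank 34 it scored 688 in replicate 1 and 546 in replicate 3. ETS factor genes gave 3 of 9, with pnt (ranks 74 and 86), Eip74EF and Ets21C, and 6 of the 9 were linked to any summit. The intronic pnt summit scored 535 and 453 and the promoter one 522 and 420, and replicate 1 was the higher at both. In the list of Capicua and its partners, wap (rank 65) was linked beside cic. That summit lay inside Usp2, 81 bp from a Usp2 start, and wap was linked only by a start within 1000 bp. The wap product is an adaptor of a kinase that phosphorylates Capicua.

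Stress, immune and chromatin regulators were also present. JNK genes gave 2 of 10, both intronic: puc, the JNK phosphatase gene (rank 32, 639 and 616), and kay, which encodes Fos (rank 47, 688 and 433, with both octamers at the summit as printed above). Stress-response factors gave 3 of 19, with crp, sima and cnc, the Nrf2 gene (rank 51, 484 and 608). Of the 17 heat shock protein genes Hsp83, the Hsp90 gene, was linked (rank 45, 430 and 698). Toll and IMD genes gave 3 of 23, with the inhibitor gene cact at rank 1 and the NF-kB factor genes dl (rank 130) and Rel (rank 222). BMP genes gave 3 of 16 (shn, the receptor gene sax and the inhibitor gene Dad), and Trithorax and SWI/SNF genes 3 of 15 (ash2, mor and Trl, which encodes the GAGA factor). Any summit of the list reached 8 of the 10 JNK, 14 of the 19 stress-response and 13 of the 17 heat shock genes. It also reached 17 of the 23 Toll and IMD, 12 of the 16 BMP and 12 of the 15 Trithorax and SWI/SNF genes.

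Metabolic genes stood from rank 15 to rank 291. From 25 glycolysis and gluconeogenesis genes 4 were linked: Pepck2 (rank 15), Gapdh2 (rank 102), Glyp (rank 150) and Eno (rank 224). From 20 lipid genes it was 3, the phosphatidate phosphatase gene Lpin (rank 109), the lipase gene bmm (rank 168) and the lipid droplet gene Lsd-2 (rank 291). The glutamine synthetase gene Gs2 (rank 58, 644 in replicate 1 and 409 in replicate 3) and the glutamate transporter gene Eaat1 (rank 80, 548 and 420) were 2 of 12 glial genes. Autophagy genes gave 2 of 18 (Atg7 and Atg17). Myc (rank 84) and Hnf4 (rank 174) were 2 of 9 genes of sugar sensing. Any summit of the list reached 22 of the 25 glycolysis and gluconeogenesis genes, 17 of the 20 lipid genes and 5 of the 12 glial genes. The same counts were 14 of 18 for autophagy and 9 of 9 for sugar sensing. Pect, a phospholipid synthesis gene (rank 44), and Pex2, which encodes a peroxisome assembly factor (rank 56, 647 and 432), were linked outside the lists.

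Of the 39 lists 8 had 0 genes with a member. They were neuronal and synaptic genes (0 of 36), cell cycle (0 of 24), segmentation (0 of 20), Polycomb (0 of 17), yolk and chorion (0 of 16), Hippo (0 of 15), testis meiotic arrest (0 of 12) and Hox genes (0 of 10). The Polycomb list was not without binding, since 12 of its 17 genes were linked to some summit of the list, whereas for Hox genes this was 1 of 10 and for segmentation genes 2 of 20. Beside the background of 1.97%, a count of 0 in lists of this size sets no list apart. Single linked genes were seen for the JAK/STAT (Socs36E), Notch (mam), Wnt (nkd), photoreceptor (Rh5), muscle (Zasp52), cytoskeleton (shot), RNA-binding (Syp) and ion channel (KCNQ) lists. Homeodomain and zinc-finger regulators gave 3 of 31 (jigr1, spen and crol).

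**Figure D5:**
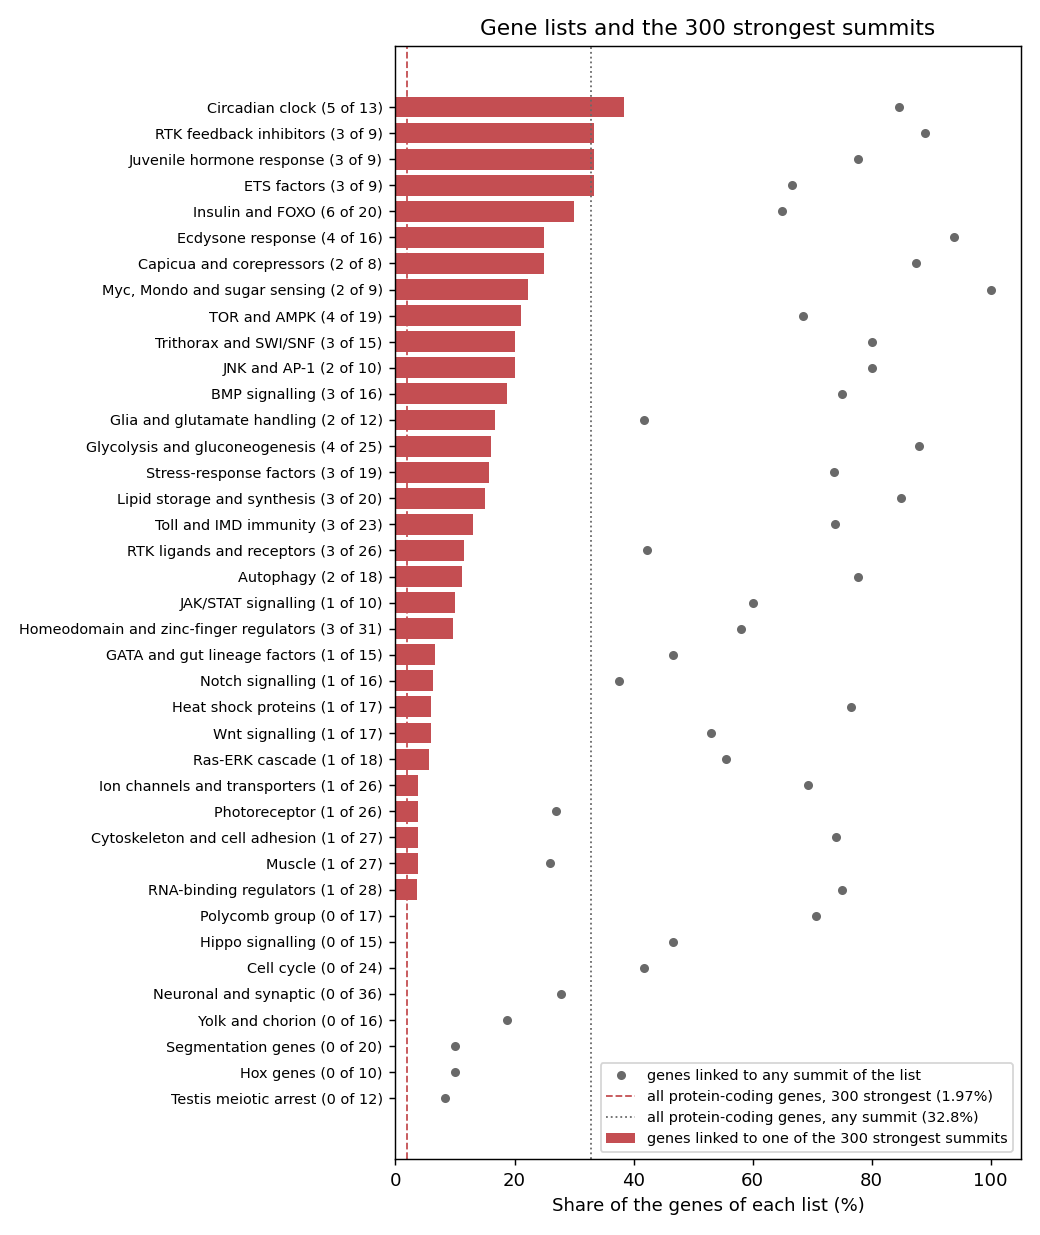
Share of the genes of each of the 39 lists in percent (horizontal axis) linked to one of the 300 strongest summits (red bars) and to any summit of the list (grey points), with the same shares over all protein-coding genes as dashed (1.97%) and dotted (32.8%) lines; the counts stand beside the list names. Clock genes have the longest bar (5 of 13), and 8 lists have 0.

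Other members of ranks 26 to 60 reached genes of varied roles. Sox14, an ecdysone-induced HMG-box gene (rank 29), scored 567 in replicate 1 and 711 in replicate 3, and smash, a cell shape gene (rank 36), scored 434 and 769 in an intron. The summit at rank 31 lay inside CG9008, 78 bp downstream of its start, and scored 700 and 569. A start of p38b, a stress-activated MAP kinase gene, lay within 1000 bp of that summit. Promoter summits also lay at Hydr1 (rank 27), CG14777 with CG14778 and O-fut2 (rank 41), papi, a gene of the piRNA pathway (rank 42), Reph (rank 43), lbk with CG10731 (rank 48), Atet, an ABC transporter gene (rank 52), and Fkbp14 (rank 55). The summit in CG3764 (rank 50) was in its first intron, and the one at Ssu72, a phosphatase of RNA polymerase II (rank 60), was in its 3′ UTR. Across these the higher replicate varied from gene to gene.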

How the data were processed

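The authors deposited ChIP-seq peak lists on dm6 and dm3; only the dm6 lists were used. The list made from both replicates gives each entry a score, which the deposited file does not name beyond the column; it is used here as peak strength. Scores of replicates 1 and 3 came from their own lists of 30000 entries of peaks and background, by the strongest entry overlapping a member by 1 bp or more. Caller, aligner and read depth cannot be stated (not given in the sources used here), so no interval on a score can be had. Positions used Ensembl 115 gene models and sequences the RefSeq Release 6 genome. Shares were compared with Fisher's exact tests, two-sided, Benjamini-Hochberg adjusted within each family at 0.05, with exact Clopper-Pearson 95% intervals that cover counting error only (Python 3.11.15, scipy 1.17.1, pandas 2.3.3, numpy 2.4.6, matplotlib 3.10.9). Test code was tested on simulated data. Members and the 39 gene lists (710 names, 2 unmatched) were chosen with earlier results of these data known. Genes named are those of ranks 26 to 60, those with 3 or more members, up to 5 per list, the 10 nearest octamers, the 5 widest and 5 narrowest replicate differences, and the 3 entries on each side of the threshold; any other is said to be chosen after its values were seen. One gene that the rule names is not reported here. Alternatives are in the closing section.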

Additional observations from a re-analysis of the deposited data

How the results depend on the processing

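The octamer difference kept its direction and its side of the threshold in all 11 alternatives run, from 7.03 to 20.1 percentage points (main value 11.2), and the intergenic share passed the threshold in none. The promoter difference of -9.06 points fell short of the threshold with the 600 strongest summits (-4.38), and the intron difference of 7.31 points with the 600 strongest (4.55), in ranks 26 to 300 (6.37) and against only the strongest 3276 entries of the rest (6.50). Leaving out a replicate gave -7.68 to -4.37 points for promoters and 3.87 to 6.42 for introns, and neither passed without replicate 1; the cause was not tested. Results for GAGA, TGAATGGA, arm 2L and the X each lost their call in at least 1 alternative, and the X lost it with the 100 strongest and against those 3276 entries. DRE passed with windows of 50 and 250 bp, and the CACGTG E-box with the 600 strongest. No direction of a called result reversed. Taking the replicate entry with the nearest summit within 100 bp, chosen after seeing the data, matched 296 of 300 members, with replicate 1 higher at 137. No paired analysis was possible because the samples form 1 group. Depth is unknown, and 300 summits leave an interval of 50.2 to 61.7% on the promoter share.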

Other observations

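The following genes with 2 members each were chosen after their values were seen. The summits of ranks 78 and 209 lay where the bodies of HmgD and HmgZ overlap, genes of abundant HMG-box chromatin proteins. Both summits at Lk6, a kinase gene of the ERK and translation pathways (ranks 216 and 231), lay 227 bp apart. Members also fell in pairs on bun (ranks 21 and 131), sbb (ranks 186 and 235), Glut4EF (ranks 170 and 185) and SCaMC (ranks 211 and 273). Intergenic members lay nearest to GATAe, a gut GATA factor gene, 3793 bp upstream of its start (rank 294), and to RYBP (rank 292), 7576 bp downstream of its start.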
